A study of Mus musculus with 8 samples.

Results

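Chromatin accessibility was described at 9 genes of transcription factors and co-factors that shape the identity of skeletal muscle fibres. They were Six4, Eya1, Sox6, Tbx15, Prox1, Tead1, Tead4, Nfix and Maf. Their regions were taken by name: every region that the deposited table of ATAC-seq regions assigns to one of these 9 genes was included, which gave 958 of 489637 regions. Of these, 331 passed the filter on low signal and were tested, among 124901 tested regions in all. ATAC-seq uses a transposase that cuts open DNA, so the signal of a region follows how often its DNA was reached. The libraries came from nuclei of gastrocnemius, a calf muscle made mostly of fast fibres, of mice aged 6 months. All mice carried the same genotype, written Cre+:iMSBmal1 fl/fl, so that the controls also held the Cre transgene and both floxed copies of Bmal1. The control group, Vehicle, received vehicle, and the group named iMSBmal1KO received tamoxifen, which activates an inducible Cre. Tamoxifen itself and the loss of Bmal1 therefore cannot be told apart. Each group held 4 libraries. The labels do not say whether these came from separate animals, so the p-values measure the spread between these libraries, which may be technical.

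Fibre identity in adult muscle is held by transcription factors that act on contractile and metabolic genes. The homeodomain factor Six4 and EYA co-activators favour the fast glycolytic program, SOX6 represses slow-fibre genes in fast fibres, TBX15 is found in glycolytic fibres, and PROX1 and the TEAD proteins take part in slow-fibre and muscle gene expression. NFIX controls the switch from embryonic to fetal myogenesis, and large MAF proteins are linked to the fast IIb myosin. BMAL1, with its partner CLOCK, binds E-boxes and drives the circadian clock, which in muscle also times metabolic and structural genes.

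The libraries differed in depth, from 4.31 M read equivalents in Vehicle replicate 4 to 29.5 M in iMSBmal1KO replicate 1. Vehicle replicate 4 also had the largest mitochondrial share, 16.5%, against 1.11% to 5.51% in the other libraries. The tissue label was checked against marker genes: start regions of the general muscle genes Ckm, Acta1 and Ttn ranked at percentiles 99.8, 98.7 and 93.4 of all tested start regions by Vehicle signal per kilobase. Of the 7 fast-fibre genes, 6 had a tested start region, with Tnnt3 at 99.7, Atp2a1 at 98.3, Tnni2 at 98.1, Pvalb at 96.1, Myh4 at 62.3 and Myh1 at 17.6. Of the 7 slow-fibre genes, 6 had one, with Atp2a2 at 66.6, Tnni1 at 42.2, Tnnt1 at 19.6, Myl3 at 17.8, Myh7 at 3.61 and Myl2 at 2.81. The 2 lists overlapped, since both fast myosin genes ranked below Atp2a2. No tested gene of the 11 marker lists passed the test. The summed signal of satellite-cell markers ran from 558 to 628 in Vehicle and from 624 to 779 in iMSBmal1KO. Most of that sum was Pax7, with a mean of 506 in Vehicle and 608 in iMSBmal1KO. Means were 17.8 and 19.3 for Calcr, while Myf5 went the other way, with 78.7 and 69.0. Vcam1 had 4.08 and 13.0, with all iMSBmal1KO libraries above all Vehicle libraries, but it fell below the filter and was not tested. For the targeted gene, listed as Arntl, the signal summed over 82 regions was 2688, 2248, 2557 and 1942 in Vehicle and 3023, 3421, 3154 and 3315 in iMSBmal1KO, a log2 difference of 0.46 ± 0.14 (SE), limma adjusted p 0.374. Accessibility summed over a gene does not measure the deletion, and the labels do not say which exon was removed.

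The sequences shown first are those where the table's accessible regions meet a known start site. RefSeq windows of the 250 bases before a start, on GRCm38.p6, were found for Six4, Sox6, Prox1 and Nfix, 14 windows in all, and 4 of them overlapped an accessible region of their gene. On both strands 6 motifs were searched: the E-box CACGTG bound by BMAL1 and CLOCK, the M-CAT site CATTCC of TEAD proteins, the MEF3 site TCAGGTTTC bound by Six4, the nuclear receptor half-site AGGTCA used by REV-ERB and ROR factors, TATAAA and CCAAT. No match shared bases with another motif's match. The following stretches are shown because they hold the motif matches that lay inside an accessible region, with the match in capitals, read 5′ to 3′ along the gene's strand.
Six4, MEF3 match, chr12:73113325-73113354, minus strand: tggcctggggGAAACCTGAtcggccagatc
Six4, CCAAT match, chr12:73113481-73113510, minus strand: aatgcgaaatagCCAATggggtggctcggc
Nfix, half-site match, chr8:84775881-84775910, minus strand: gagtgagcagtgTGACCTttcttcctctgc
Nfix, CCAAT match, chr8:84776005-84776034, minus strand: gggagggggatcATTGGgtggatcttttgt
For contrast, the window before the Prox1 start at position 190170827 of chromosome 1 is given whole, because no region of the table overlapped it and the one tested region of the gene lay just downstream. Its capitals mark a TATA match read from the opposite strand.
Prox1, chr1:190170828-190171077, minus strand: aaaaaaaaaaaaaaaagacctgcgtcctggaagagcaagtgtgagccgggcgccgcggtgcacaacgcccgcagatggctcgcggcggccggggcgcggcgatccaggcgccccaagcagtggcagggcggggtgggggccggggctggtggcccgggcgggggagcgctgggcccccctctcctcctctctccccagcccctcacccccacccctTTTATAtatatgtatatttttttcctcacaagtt

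The MEF3 match of Six4 lay 99 bases before an internal RefSeq start, at 73113245, and inside the gene's main accessible region. It was downstream of another Six4 start, at 73113425. A MEF3 match occurred in 0.387% of all 32851 RefSeq windows of 250 bases. The half-site match of Nfix lay 70 bases before an internal start, in a region with a mean Vehicle signal of 78.3, and such a match was held by 14.02% of all windows. M-CAT matches stood in 2 of the Sox6 windows, neither inside an accessible region, against 12.6% of all windows. None of the 14 windows held the E-box, which 6.02% of all windows held. CCAAT was in 6 of the 14 windows and in 33.8% of all, and TATAAA in 2 and in 12.4%. A match is a run of letters and not a measured binding site.

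In Vehicle muscle the 9 genes spanned an 8.05-fold range of accessibility per kilobase of called region. Summed signal per kilobase was 519 ± 108 (SD, n = 4) for Tead4, 371 ± 47.6 for Nfix, 307 ± 50.7 for Tead1 and 291 ± 42.8 for Six4. It was 213 ± 46.5 for Tbx15, 188 ± 44.0 for Maf, 137 ± 27.3 for Eya1, 120 ± 19.5 for Sox6 and 64.5 ± 6.83 for Prox1. Neighbours in this order overlapped in their Vehicle libraries, except that every Sox6 value lay above every Prox1 value. Among tested genes these levels placed Tead4 at percentile 89.8, Nfix at 82.9 and Prox1 at 30.01. The spread between Vehicle libraries was partly shared: Vehicle replicate 4 had the lowest summed signal of all 8 libraries for Eya1, Sox6, Tbx15, Tead1, Tead4 and Nfix. Its depth and its mitochondrial share were given above, and their part in these low values was not tested. Counts behind the sums ran from 30 to 201 read equivalents per library for Prox1 and from 186 to 16948 for the other genes.

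**Figure D1:**
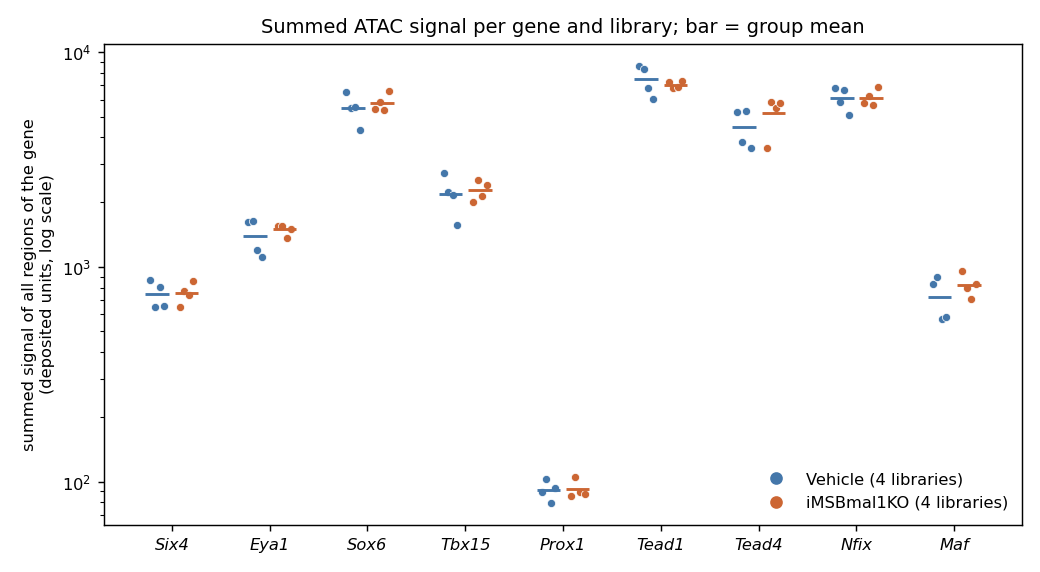
Summed signal of all regions of each gene (vertical axis, deposited units, log scale) in each of the 4 Vehicle and 4 iMSBmal1KO libraries, with bars at the group means. The 2 groups overlapped for every gene, from Prox1 at 79.4 to 105 up to Tead1 at 6056 to 8612.

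The genes differed in where their open chromatin lay. The table sorts regions by gene section, and 45 of the 331 tested regions of the 9 genes were at transcription starts, 13.6% against 32.4% of all tested regions with a gene section. Later introns held 117 (35.3% against 24.3%), regions labelled 5' UTR exon 73 (22.1% against 12.4%) and first introns 60 (18.1% against 13.9%). The 5' UTR label covered more than exons here: the 149 Sox6 regions so labelled were spread over 229 kb with a summed length of 18.8 kb, and the 21 of Tead4 over 25.3 kb.

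Start regions held most of the Vehicle signal of Prox1 (73.0%), Maf (71.2%) and Six4 (53.7%). Later introns led in Eya1 (71.3%), Tead4 (64.9%), Nfix (60.8%) and Sox6 (41.5%), the first intron in Tead1 (43.7%) and the 5' UTR label in Tbx15 (51.7%). A single region gave 53.7% of the signal of Six4 and 52.0% of that of Prox1, but 17.2% of that of Sox6, whose 377 regions extended over 562 kb.

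**Figure D2:**
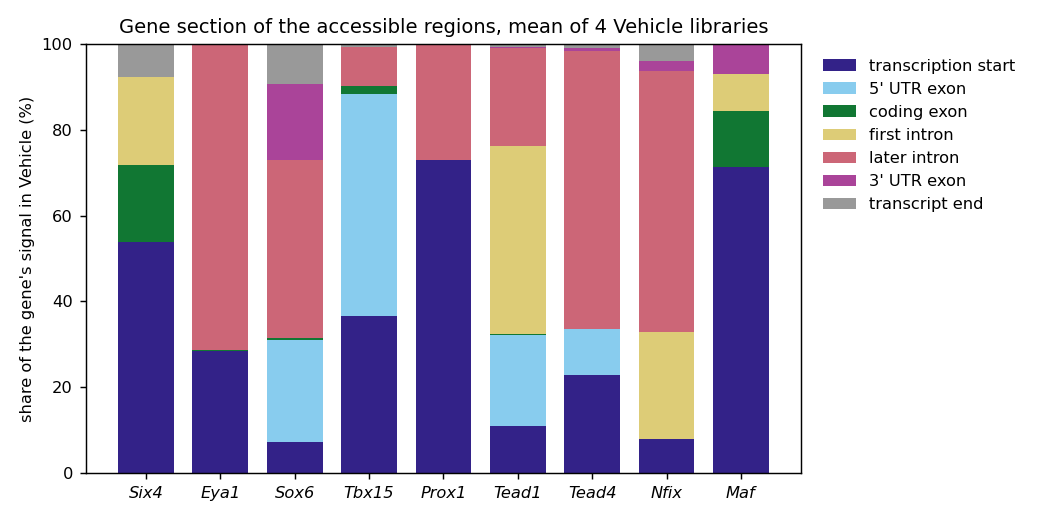
Share of each gene's summed signal (vertical axis, percent, mean of 4 Vehicle libraries) in the gene sections of the deposited annotation, 1 stacked bar per gene. Starts dominate Prox1, Maf and Six4, and later introns dominate Eya1, Tead4 and Nfix.

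The question of the comparison was whether accessibility at these genes differed between iMSBmal1KO and Vehicle muscle. None of the 331 tested regions passed an adjusted p of 0.05 in limma, where 110 of all 124901 tested regions (0.0881%) did, 39 of them higher and 71 lower. An unadjusted p under 0.05 was reached by 21 regions of the 9 genes, 6.34%, against 9.22% of all tested regions. Of the 331 regions, 19 were higher and 2 lower in iMSBmal1KO at that level. Of all 124901 tested regions, 8236 (6.59%) were higher and 3280 (2.63%) lower. The groups did not overlap in 15 of the 331 regions, 4.53% against 5.48% of all. The median log2 difference of the 331 regions was 0.11, beside 0.12 for all tested regions, and single estimates ran from -1.28 to 1.44. The smallest adjusted p was 0.214. In these respects the 9 genes were near the background of the whole table. In bulk nuclei, fewer nuclei of one cell type and less open chromatin per nucleus cannot be told apart.

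Because the median of all tested regions stood at 0.12 and not at 0, values are read against that shift, which was 0.01 with median-of-ratios, trimmed-mean and loess scaling. A total of 210 of the 331 regions (63.4%) had a log2 difference above 0, against 62.0% of all tested regions. The split at an unadjusted p under 0.05 in limma followed the scaling, with each fit counting its own regions at that level. It was 12 higher and 10 lower with median-of-ratios factors, 12 and 11 with trimmed-mean factors, and 11 and 13 with loess. The share of the 331 regions above 0 was 49.5%, 49.5% and 49.8% in these fits. Without Vehicle replicate 4, the shallowest library, the split was 11 higher and 8 lower. The split of 19 higher and 2 lower regions among the 9 genes is therefore given for the deposited scaling only.

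**Figure D3:**
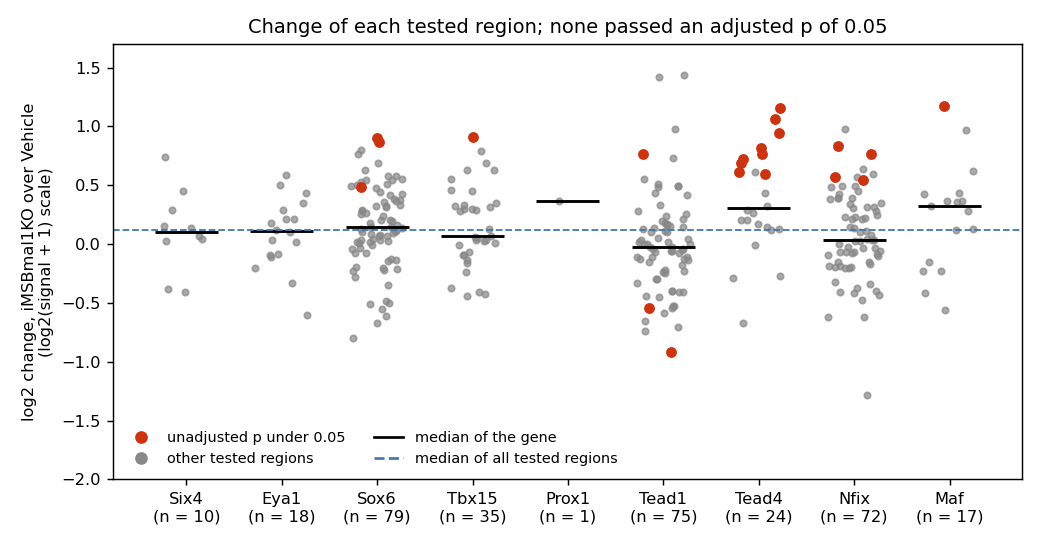
Log2 difference of iMSBmal1KO over Vehicle on the log2(signal + 1) scale (vertical axis) for each tested region, by gene, with the median of each gene as a black bar and the median of all tested regions, 0.12, as a dashed line. Regions with an unadjusted p under 0.05 are red, and 9 of these 21 belong to Tead4.

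Summed over a gene, none of the 9 passed the test, where 29 of 22224 genes (0.13%) did, and none had an unadjusted p under 0.05, where 9.48% of all genes had. The median of all tested genes was a log2 difference of 0.11. Estimates for the 9 genes lay between -0.07 for Tead1 and 0.22 for Maf, with 95% intervals from limma that together reached from -0.36 to 0.57. Differences inside these intervals were not resolved by 4 libraries a group. By gene section, 0 of 40 tested pairs of gene and section passed the test, where 54 of 43818 (0.123%) did, and 1 had an unadjusted p under 0.05, where 9.71% of all pairs had. That pair was the 5' UTR label of Tead4.

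Six4 (ENSMUSG00000034460, chromosome 12, minus strand), a homeodomain factor of the fast-fibre program, had 19 regions within 10.1 kb, of which 10 were tested. Its summed signal was 869, 647, 808 and 660 in Vehicle and 646, 773, 742 and 854 in iMSBmal1KO. The groups overlapped throughout, and the log2 difference was 0.02 (95% interval -0.30 to 0.34, limma adjusted p 0.972). The start region that holds both printed Six4 matches, chr12:73113320-73113681, ranked at percentile 93.8 of all tested start regions by Vehicle signal per kilobase. It had 478, 324, 442 and 360 in Vehicle and 352, 411, 394 and 460 in iMSBmal1KO, a log2 difference of 0.02 ± 0.19 (SE). A coding region of exon 1, chr12:73112587-73112788, was the one Six4 region with separate groups. It had 84.2, 58.6, 64.2 and 93.8 in Vehicle against 55.0, 58.5, 58.4 and 53.3, but Vehicle replicate 2 and iMSBmal1KO replicate 2 nearly met, and the limma adjusted p was 0.607.

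Eya1 (ENSMUSG00000025932, chromosome 1, minus strand) encodes a phosphatase and co-activator that works with homeodomain factors such as Six4. Its 81 regions, 18 of them tested, gave summed signals of 1619, 1633, 1193 and 1110 in Vehicle and 1552, 1545, 1363 and 1505 in iMSBmal1KO. Vehicle replicates 1 and 2 were above all iMSBmal1KO libraries and replicates 3 and 4 below, and the log2 difference was 0.12 (-0.20 to 0.44). The strongest Eya1 region was a start region, chr1:14309654-14310017, with 349, 283, 232 and 228 in Vehicle and 248, 297, 265 and 278 in iMSBmal1KO. A region in intron 12, chr1:14190038-14190414, came next with 233 ± 63.6 (SD, n = 4) and 281 ± 55.6. No tested Eya1 region had an unadjusted p under 0.05 or separate groups.

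Sox6 (ENSMUSG00000051910, chromosome 7, minus strand), the repressor of slow-fibre genes, held 377 of the 958 regions, and 79 were tested. Summed signal was 6504, 5465, 5552 and 4334 in Vehicle and 5407, 5870, 5388 and 6549 in iMSBmal1KO, with a log2 difference of 0.10 (-0.19 to 0.38). The highest region lay at the other end of the gene from its starts: chr7:115472817-115473389, labelled 3' UTR exon, had 1358, 905, 853 and 650 in Vehicle and 727, 976, 898 and 1138 in iMSBmal1KO. An unadjusted p under 0.05 in limma was found for 3 weaker regions of the 79 tested, all higher in iMSBmal1KO. Among all tested regions 6.59% were higher at that level. The lowest p, 0.00374, was that of chr7:116012575-116012772, labelled 5' UTR exon, with 26.6, 42.1, 31.1 and 25.0 in Vehicle and 69.8, 71.1, 40.6 and 56.4 in iMSBmal1KO. Its groups overlapped only between 40.6 and 42.1, and its adjusted p was 0.37. In the opposite direction, chr7:115973799-115973994 under the same label had the lowest p of the Sox6 regions that were lower, with 62.9, 79.1, 65.5 and 43.8 in Vehicle and 34.7, 47.7, 22.7 and 67.7 in iMSBmal1KO, groups that overlapped.

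Tbx15 (ENSMUSG00000027868, chromosome 3, plus strand), a T-box factor of glycolytic fibres, had 78 regions and 35 tested. Its summed signal was 2723, 2229, 2157 and 1570 in Vehicle and 1999, 2536, 2132 and 2398 in iMSBmal1KO, a log2 difference of 0.08 (-0.25 to 0.42). The strongest region was the start of transcript Tbx15-202, chr3:99296201-99296680, with 856, 575, 533 and 463 in Vehicle and 500, 594, 531 and 595 in iMSBmal1KO. One Vehicle library, replicate 1, stood above the other 7 there. A small region of intron 6, chr3:99339400-99339496, had 14.9, 20.5, 14.6 and 6.25 in Vehicle and 21.0, 25.1, 29.8 and 26.3 in iMSBmal1KO. These groups were separate by less than 1 unit of signal, and the limma adjusted p was 0.49.

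Prox1 (ENSMUSG00000010175, chromosome 1, minus strand), a homeobox factor of slow fibres that also marks lymphatic endothelium, had the least open chromatin of the 9. Only 1 of its 10 regions passed the filter, chr1:190170512-190170768, at the start just downstream of the printed window. Its signal was 53.3, 71.9, 33.7 and 31.3 in Vehicle and 62.1, 72.8, 47.7 and 52.7 in iMSBmal1KO, and the groups overlapped. The whole gene summed to 89.5, 103, 79.4 and 93.8 in Vehicle and to 86.0, 105, 89.5 and 87.8 in iMSBmal1KO, a log2 difference of 0.01 (-0.36 to 0.39). Lymphatic endothelial markers summed to 352 to 419 in Vehicle and 247 to 409 in iMSBmal1KO. Vehicle and iMSBmal1KO means were 178 and 115 for Flt4 (limma adjusted p 0.376) and 38.2 and 26.4 for Lyve1. They were 4.51 and 1.76 for Mmrn1, which fell below the filter, while Pdpn went the other way, with 157 and 185. The part of these markers in the Prox1 signal was not tested.

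Tead1 (ENSMUSG00000055320, chromosome 7, plus strand) encodes a TEAD factor that binds M-CAT sites of muscle genes. It had the highest summed signal of the 9 genes, 8612, 8341, 6778 and 6056 in Vehicle and 7254, 6777, 6852 and 7285 in iMSBmal1KO, over 175 regions. Its log2 difference was -0.07 (-0.34 to 0.21) and its sign was the reverse of the shift of all genes. The iMSBmal1KO libraries spread less than the Vehicle libraries, with SDs of 265 and 1229.8. The strongest region, chr7:112763053-112764121 in intron 1, had 2104, 1795, 1424 and 1288 in Vehicle and 1343, 1538, 1564 and 1584 in iMSBmal1KO.

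At the deposited scaling, both regions of the 9 genes that were lower at an unadjusted p under 0.05 belonged to Tead1. The first, chr7:112775913-112776149 in intron 1, had 181, 176, 168 and 169 in Vehicle and 108, 102, 128 and 140 in iMSBmal1KO. All iMSBmal1KO libraries were below all Vehicle libraries, with a log2 difference of -0.55 ± 0.20 (SE), an unadjusted p of 0.0146 and a limma adjusted p of 0.48. The other was a weak region of intron 7, chr7:112862619-112862822, with 11.7, 13.4, 17.8 and 21.9 against 9.84, 9.20, 4.77 and 8.78. The start region with the highest signal, chr7:112741797-112742243, had 687 ± 151 (SD, n = 4) in Vehicle and 666 ± 75.7 in iMSBmal1KO.

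Tead4 (ENSMUSG00000030353, chromosome 6, minus strand), a TEAD factor active in myoblasts and regenerating muscle, had 55 regions and 24 tested. Of these 24, 9 had an unadjusted p under 0.05 in limma and all 9 were higher in iMSBmal1KO. Among all tested regions 9.22% reached that level, 6.59% higher and 2.63% lower. The direction of the Tead4 regions held after rescaling, with 7, 7 and 6 regions higher and 0 lower for median-of-ratios, trimmed-mean and loess scaling. The number of Tead4 regions at that level fell to 3 without iMSBmal1KO replicate 2 or without iMSBmal1KO replicate 4, and to 5 with limma-voom. No other member had more than 4, the number among the 72 tested regions of Nfix. Regions that abut one another are not independent, and 4 of the 9 form a single run. Summed over the gene the signal was 5232, 3799, 5320 and 3558 in Vehicle and 3559, 5870, 5506 and 5798 in iMSBmal1KO. In iMSBmal1KO, 3 libraries lay above all Vehicle libraries, and iMSBmal1KO replicate 1 lay beside the lowest of them. The log2 difference was 0.21 (-0.15 to 0.57, limma adjusted p 0.664), and 0.38 without iMSBmal1KO replicate 1, where the adjusted p was 0.757.

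The Tead4 region with the lowest p of all 331 was chr6:128296230-128296794, labelled 5' UTR exon of transcript Tead4-202 and 4019 bases downstream of that transcript's start. It had 167, 152, 165 and 106 in Vehicle and 172, 345, 338 and 310 in iMSBmal1KO. All iMSBmal1KO libraries were above all Vehicle libraries, by a narrow margin for replicate 1. The log2 difference was 0.95 ± 0.24 (SE), with an unadjusted p of 7.97e-04 and a limma adjusted p of 0.214. Without iMSBmal1KO replicate 1 it was 1.18 with an adjusted p of 0.0441, the one setting of 18 that passed 0.05. Over all settings the adjusted p ran from 0.0441 to 0.656.

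The run of 4 abutting regions around it, chr6:128296171-128297345, summed to 400, 335, 417 and 266 in Vehicle and 400, 764, 639 and 661 in iMSBmal1KO. Here iMSBmal1KO replicate 1 fell inside the Vehicle range and the other 3 libraries above it. The upstream start region of the gene, chr6:128300411-128300841 at the start of transcript Tead4-205, was singled out after its values were seen. It had 199, 191, 217 and 191 in Vehicle and 231, 389, 396 and 329 in iMSBmal1KO, separate groups with a log2 difference of 0.72 ± 0.21 (SE), an unadjusted p of 0.00237 and a limma adjusted p of 0.317.

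The strongest Tead4 region, chr6:128264937-128265698 in intron 2, held 33.1% of the Vehicle signal of the gene, with 1837, 1214, 1750 and 1126 in Vehicle and 1016, 1586, 1585 and 1694 in iMSBmal1KO, a log2 difference of -0.01 ± 0.20 (SE). The internal start of transcript Tead4-203, chr6:128275516-128276102, had 932, 597, 951 and 560 in Vehicle and 508, 946, 952 and 925 in iMSBmal1KO. In both regions iMSBmal1KO replicate 1 was the lowest of the 8 libraries, and the groups overlapped. The next strongest intron regions, in introns 2 and 8, had log2 differences of 0.12 and 0.17.

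**Figure D4:**
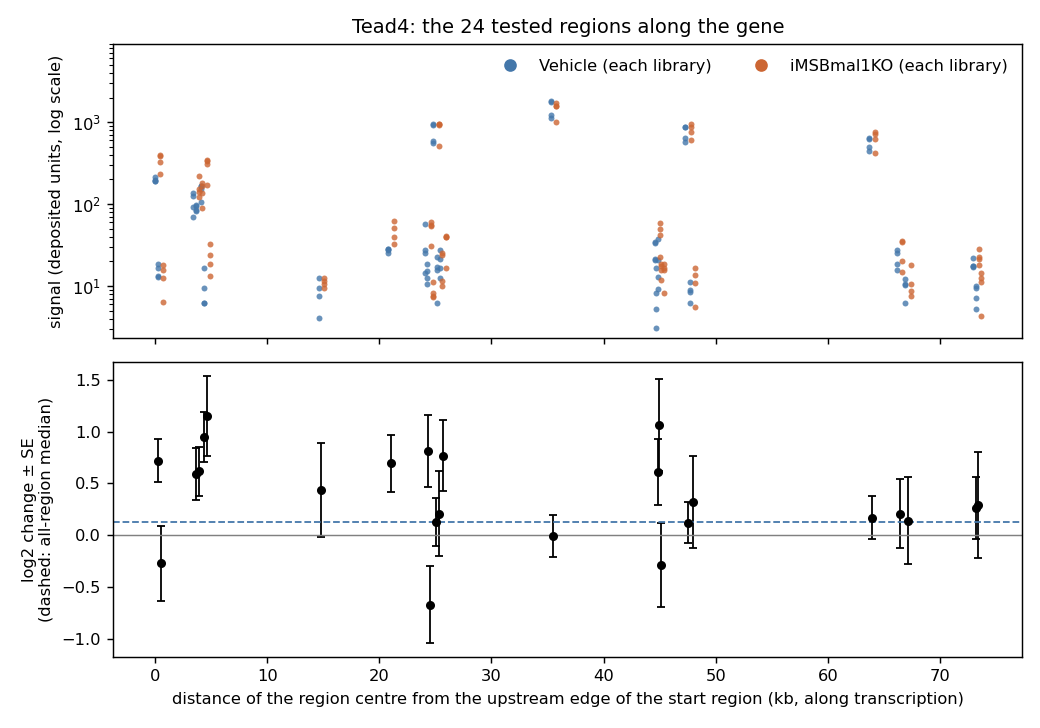
Tead4 along the direction of transcription (horizontal axis, kilobases from the upstream edge of the start region): signal of each tested region in each library (upper panel, deposited units, log scale) and log2 difference with its standard error (lower panel, all-region median dashed). The regions within 5 kb of the upstream start lie mostly above the dashed line, and the strong region 35.5 kb downstream lies at -0.01.

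Summed over the 5' UTR label the Tead4 signal was 508, 440, 571 and 372 in Vehicle and 512, 939, 800 and 854 in iMSBmal1KO. Only iMSBmal1KO replicate 1 lay within the Vehicle range. The log2 difference was 0.70 ± 0.20 (SE), with an unadjusted p of 0.00186 and a limma adjusted p of 0.275. Later introns of the same gene had 3477, 2464, 3408 and 2282 in Vehicle and 2181, 3404, 3156 and 3524 in iMSBmal1KO, a log2 difference of 0.08 ± 0.18 (SE).

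As a share of the signal of the gene, which removes what all its regions have in common within a library, the 5' UTR label held 9.72%, 11.6%, 10.7% and 10.5% in Vehicle. In iMSBmal1KO it held 14.4%, 16.0%, 14.5% and 14.7%. The groups were separate, including iMSBmal1KO replicate 1, at 10.6% ± 0.766 (SD, n = 4) and 14.9% ± 0.735. The share of later introns was lower, 64.9% ± 1.11 against 59.3% ± 1.98. A higher share of one section lowers the share of the rest, and the later-intron signal itself had a log2 difference of 0.08. Shares were tested as the log2 ratio of a section to the rest of its gene, over 34146 pairs of gene and section. This limma fit was added after the values were seen. For the 5' UTR label that log2 ratio differed by 0.56 ± 0.13 (SE), with an adjusted p of 0.343. None of the 40 shares of the 9 genes passed 0.05 in that fit, where 1 of all 34146 (0.00293%) did, and 2 had an unadjusted p under 0.05, where 9.38% of all had. Both were shares of Tead4, which are not independent of each other.

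**Figure D5:**
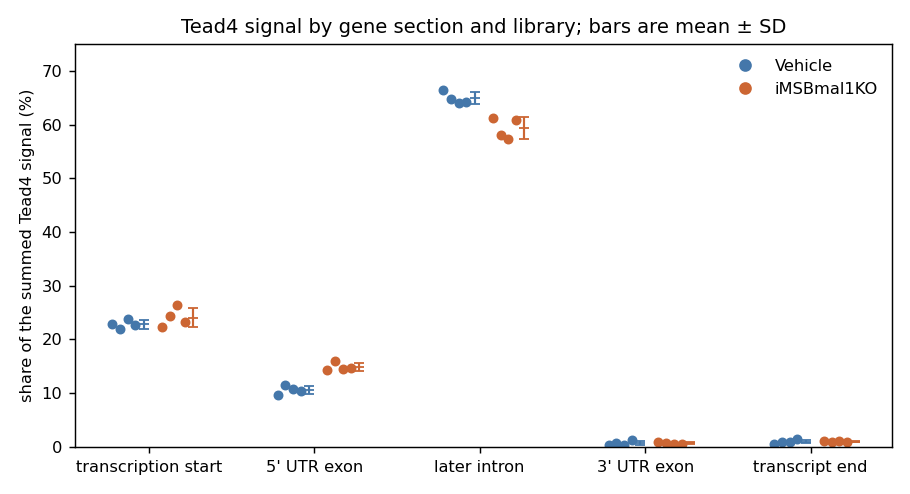
Share of the summed Tead4 signal (vertical axis, percent) in each gene section for each library, with mean ± SD beside each group of 4. The 5' UTR label holds 9.72% to 11.6% in Vehicle and 14.4% to 16.0% in iMSBmal1KO, and later introns the reverse order.

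Nfix (ENSMUSG00000001911, chromosome 8, minus strand), the nuclear factor I gene of fetal and adult muscle, had 134 regions and 72 tested. Its summed signal was 6815, 5842, 6633 and 5112 in Vehicle and 5762, 6221, 5678 and 6874 in iMSBmal1KO, and the log2 difference was 0.01 (-0.26 to 0.28). The strongest region, chr8:84718452-84719119 in intron 8, had 1266, 1029, 1148 and 941 in Vehicle and 916, 1090, 994 and 1119 in iMSBmal1KO. Separate groups were found in 5.48% of all tested regions, 4518 of them higher and 2331 lower in iMSBmal1KO. Of the 15 regions with separate groups in the 9 genes, 4 were among the 72 tested Nfix regions, all higher in iMSBmal1KO. The one with the lowest p, chr8:84720020-84720086 in intron 8, had 6.40, 8.22, 7.63 and 12.5 in Vehicle and 15.4, 17.6, 15.5 and 15.1 in iMSBmal1KO, with a limma adjusted p of 0.514. The region around the printed half-site was weaker than the strongest Nfix start region, chr8:84775055-84775488, which had 224, 182, 162 and 172 in Vehicle and 169, 197, 146 and 232 in iMSBmal1KO.

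Maf (ENSMUSG00000055435, chromosome 8, minus strand) encodes a large MAF protein and had 29 regions, 17 of them tested. Summed signal was 828, 899, 571 and 582 in Vehicle and 953, 797, 709 and 835 in iMSBmal1KO. Vehicle replicates 3 and 4 were below every other library. The log2 difference, 0.22 (-0.14 to 0.57), had the lowest p of the 9 genes, yet its adjusted p was 0.655. Its strongest region, chr8:115707783-115708287 at the start, had 384, 372, 193 and 209 in Vehicle and 381, 339, 282 and 345 in iMSBmal1KO, a spread that follows the gene sum. A small start region of 60 bases in the same run of abutting regions, chr8:115707253-115707312, had 8.53, 19.5, 18.4 and 3.13 in Vehicle. It had 19.5, 22.6, 37.0 and 21.3 in iMSBmal1KO, with a limma adjusted p of 0.486. These values rest on 1 to 46 read equivalents per library.

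Across the 8 libraries the genes whose summed signal was most like that of Maf, the member with the smallest gene-level p, were Mrpl42 and Rtel1 (Pearson r 0.98 each) and Zzef1, Nsun4 and Rab11b (0.97 each), out of 22223 genes compared. With 323 genes above 0.9 over 8 libraries that share depth and scaling, this likeness is a description only. Among the 9 genes, the pairs most alike were Eya1 and Maf (r 0.94), Sox6 and Tbx15 (0.94) and Sox6 and Nfix (0.92), on the same 8 libraries.

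A list of 28 genes related by family or partnership had 394 tested regions in 1387. The genes were listed for kinship, but with earlier results of these data known. None of the 394 regions passed the test, where 0.0881% of all did, and 20 (5.08%) had an unadjusted p under 0.05 in limma, where 9.22% of all had. Their median log2 difference was 0.11, as in the 9 genes. By summed signal, 27 of the 28 genes were tested and none passed, with 1, Six5, at an unadjusted p under 0.05. Nfic, a paralog of Nfix, held the smallest adjusted p of the list.

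That Nfic region, chr10:81414009-81414118 in intron 2, is named although it fell outside the rule for named regions. It had 142, 171, 164 and 122 in Vehicle and 72.8, 91.2, 62.0 and 89.1 in iMSBmal1KO. All iMSBmal1KO libraries were lower, with a log2 difference of -0.92 ± 0.22 (SE) and a limma adjusted p of 0.176. It passed 0.05 when the libraries were rescaled, with adjusted p of 0.016 for median-of-ratios factors, 0.0159 for trimmed-mean factors and 0.00703 for loess. Of 32 tested Nfic regions, 5 had an unadjusted p under 0.05 in limma, all lower in iMSBmal1KO. Among all tested regions 2.63% were lower at that level.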

How the data were processed

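Chromatin accessibility was measured in 8 libraries, 4 Vehicle and 4 iMSBmal1KO. The authors deposited a table of 489637 regions with one signal value per library. Bowtie2, MACS2, DESeq2 and Partek are named in the submitters' processing notes, without versions or roles, as are the builds mm10 and GRCm39. The table names no build; its coordinates fit GRCm38, since 99.9% of the genes matched by symbol overlapped their RefSeq gene on GRCm38.p6. Ends are given as the last base of a region. The deposited signal looked like reads scaled by one factor in each library: 98.3% to 99.8% of non-zero values were multiples of a single step within 0.02 reads, and dividing by it gave read equivalents. Whole reads could not be recovered for all values, so the tests fit a scaled signal. Duplicate removal and read shifting are not given in the sources used here.

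Signal was compared with limma-trend with robust moderation (limma 3.58.1, R 4.3.3) on log2(signal + 1), with group as the only term, over all regions, gene sums and sums per gene section that passed the filter. The filter asked for 0.762 read equivalents per M reads of the library in 4 libraries and 15 over all libraries. P-values were adjusted by Benjamini-Hochberg over all tested features, at a threshold of 0.05. Summed signal includes untested regions. Signal per kilobase divides it by the summed length of the regions. The median region length was 115 bp, and 41.3% of regions abut another. The fit was tested on simulated data. Python 3.11.15 (pandas 2.3.3) served for tables and matplotlib 3.10.9 for plots. Promoter windows come from RefSeq.

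Named regions of each gene were that with the highest Vehicle signal, the start region with the highest Vehicle signal, and the tested regions of lowest p among higher and among lower differences; others are described as chosen after their values were seen, including the second-ranked regions, those with separate groups and those of Nfic. The members and lists were chosen with earlier results of these data known. Alternatives were other scalings, pseudocounts of 0.5 and 5, no filter, the replicate number as a block, limma-voom, a threshold of 0.1 and leaving out each library.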

Additional observations from a re-analysis of the deposited data

Results flagged for a closer look

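Of the 76 groups of 4 values examined, 3 had a library far from the others, and all 3 belonged to Tead4. In each of them that library was iMSBmal1KO replicate 1, the most deeply sequenced library. Chance at 1 in 20 gives 3.8 such groups if the groups are independent. These 3 are not independent, since the summed signal of Tead4 includes both regions given below. The count therefore cannot decide whether chance accounts for them. The summed signal of Tead4 was 3559 there and 5506 to 5870 in the other iMSBmal1KO libraries, a gap of 0.843 of the range. The intron 2 region from 128264937 to 128265698 had 1016 against 1585 to 1694, a gap of 0.840. The start region of Tead4-203, from 128275516 to 128276102, had 508 against 925 to 952, a gap of 0.938. The share of the Tead4 signal under the 5' UTR label was 14.4% in this library, beside 14.5% to 16.0% in the other iMSBmal1KO libraries.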

How the results depend on the processing

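No call was made for the 9 genes by summed signal or by gene section under any of 18 settings, or for within-gene shares under any of 13. Leaving out each library in turn gave 0 to 1 called regions of the 9 genes, the 1 being the Tead4 region from 128296230 to 128296794 without iMSBmal1KO replicate 1. For the related genes it gave 0 to 1, the 1 being called without Vehicle replicate 4 and without iMSBmal1KO replicate 1. Called regions of the related-gene list were also 1 with median-of-ratios factors, with trimmed-mean factors, with loess scaling and with limma-voom. The other settings gave 0. The cause of these moves was not tested. Of 79 single estimates without a call, 36 had the other sign under at least 1 alternative (128 of 1338 pairs of estimate and setting), and 1 became a call in 1 setting. Over all tested regions, 110 were called, 279 with median-of-ratios factors (85 higher, 194 lower), 277 with trimmed-mean factors, 342 with loess and with limma-voom each, 195 without the filter, 162 with a pseudocount of 5, 175 at a threshold of 0.1, and 32 to 281 with a library left out. Whether the replicate numbers pair the libraries is not given in the labels. Deviations of same-numbered libraries correlated at -0.0638, 0.140, 0.0226 and 0.0246, which cannot settle it. Over all tested features the replicate block gave 100 called regions against 110, 116 called genes against 29 and 117 called sections against 54. With the replicate block the called regions of the 9 genes were 0, called genes 0, called sections 0, called shares 0 and called regions of the related list 0. The planned edgeR and DESeq2 fits were not run, because whole reads could not be recovered. Depth limits the weak regions most: Prox1 held 30 read equivalents in its shallowest library.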
